A study of Mus musculus with 12 samples.

Results

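The genes described here are 9 mouse genes known as germline genes that DNA methylation keeps silent in most cells of the body: Dazl, Piwil2, Mael, Asz1, Stk31, Sycp3, Hormad1, Taf7l and Rhox5. They were picked by name from the 24421 genes of the raw count table. Their read counts in the NT, Mycn-gRNA2 and Mycn-gRNA3 libraries were known when they were picked, so every comparison of these 9 genes between the groups is given as a description, with no test. DNA methylation itself was not measured in these samples, so the name of the set rests on what is known of the genes and not on these data.

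PolyA RNA came from E14, a mouse embryonic stem cell line, with the genotype WT(dCas_Alkbh5). All 12 samples therefore carried the fusion of dCas with Alkbh5, an m6A demethylase. All were grown on gelatin with FBS and LIF, transfected with 1 µg of the lenti-sgRNA-BSD plasmid that codes for a guide RNA, kept for 3 days in 8 µg/mL blasticidin, and then held in pause with 200 nM INK128, which inhibits the kinase mTOR, over 5 days. The 3 groups of 4 samples differed in the guide: NT is the control guide, and Mycn-gRNA2 and Mycn-gRNA3 are guides for Mycn, a MYC-family transcription factor. The labels do not say that replicates were separate cultures, so any p-value below reflects only how far these samples differ, which could be technical spread.

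The libraries held 17248564 to 33819855 reads on mouse genes, and 1.04% to 1.61% of reads fell on the 92 synthetic ERCC RNAs added to the RNA of 200000 cells per sample. Levels are given on 2 scales. CPM values, reads scaled to a common library total after TMM normalisation, are relative to the rest of the transcriptome, and reads per 1000 ERCC reads set a gene against the added RNAs. The median tested gene stood 0.39 higher per ERCC read with both Mycn guides than in NT on the log2 scale, so a gene that kept its place in the transcriptome stood about that much higher per ERCC read. Mycn ran from 136 to 146 CPM in the NT libraries, from 205 to 262 CPM with Mycn-gRNA2 and from 258 to 292 CPM with Mycn-gRNA3. Embryonic stem cell markers summed to 4580 to 4950 CPM in NT, 3630 to 4130 CPM in Mycn-gRNA2 and 3660 to 4290 CPM in Mycn-gRNA3, and none of the 7 was at 0 reads in any group. The Y-linked genes summed to 0.0449 to 0.181 CPM in the NT libraries, 32.4 to 83.8 CPM in Mycn-gRNA2 and 46.1 to 63.6 CPM in Mycn-gRNA3. A difference between the guides and a difference between the NT cells and the cells that received a Mycn guide therefore cannot be told apart in any comparison with NT. The samples are bulk RNA, in which fewer cells expressing a gene and less RNA per cell cannot be told apart.

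Germline genes serve the making of eggs and sperm. Many of them have promoters rich in CpG that are methylated in somatic cells and lose that methylation in primordial germ cells, and embryonic stem cells often show low levels of them. At many of these promoters the repressor complex PRC1.6 acts beside DNA methylation, and it reaches them through DNA-binding subunits such as MGA with its partner MAX, which bind the E-box CACGTG, and E2F6. MYCN also pairs with MAX and binds the same E-box. Rhox5 differs from the other genes in that its main known sites are the Sertoli cells of the testis and extraembryonic tissue, and it too is a known target of DNA methylation.

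Promoters of 8 of the 9 genes were found in the RefSeq table for GRCm38.p6, each running from 250 bases before the gene's start to 50 after it. The promoters of Stk31 and Taf7l are shown because these genes had the lowest levels relative to NT with both guides, that of Sycp3 because it carries the same E-box letters while its level stood close to NT, and that of Rhox5 because its level differed most between the Mycn guides. The Rhox5 window belongs to a distal start, which lies 50234 bases before the start of the gene in GENCODE M21, and the sequence at that proximal start was not used here. Capitals mark CACGTG, which reads the same on both strands, and GCGGGA with its reverse complement TCCCGC, an E2F-like motif. The windows lie on the plus strand for Stk31 (chr6:49395354-49395653), Sycp3 (chr10:88459337-88459636) and Rhox5 (chrX:37754358-37754657) and on the minus strand for Taf7l (chrX:134476441-134476740), and each is written 5′ to 3′ on the strand of its gene.
Stk31: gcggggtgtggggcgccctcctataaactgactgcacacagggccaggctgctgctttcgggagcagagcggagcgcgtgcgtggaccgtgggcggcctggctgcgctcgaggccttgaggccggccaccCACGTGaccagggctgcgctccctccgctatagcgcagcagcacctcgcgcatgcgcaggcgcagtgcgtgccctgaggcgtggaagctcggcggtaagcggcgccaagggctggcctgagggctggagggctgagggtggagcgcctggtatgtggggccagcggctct
Taf7l: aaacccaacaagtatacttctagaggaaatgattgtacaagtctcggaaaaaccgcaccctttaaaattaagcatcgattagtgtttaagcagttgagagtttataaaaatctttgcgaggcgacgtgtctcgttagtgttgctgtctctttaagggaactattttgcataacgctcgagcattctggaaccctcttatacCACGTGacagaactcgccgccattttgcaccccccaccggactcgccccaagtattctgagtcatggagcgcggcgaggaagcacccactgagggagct
Sycp3: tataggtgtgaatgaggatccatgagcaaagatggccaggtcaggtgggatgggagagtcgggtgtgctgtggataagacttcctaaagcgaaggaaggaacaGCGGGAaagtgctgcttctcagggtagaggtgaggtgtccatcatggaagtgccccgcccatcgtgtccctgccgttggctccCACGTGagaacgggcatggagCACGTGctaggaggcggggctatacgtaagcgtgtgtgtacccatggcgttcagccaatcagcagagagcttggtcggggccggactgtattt
Rhox5: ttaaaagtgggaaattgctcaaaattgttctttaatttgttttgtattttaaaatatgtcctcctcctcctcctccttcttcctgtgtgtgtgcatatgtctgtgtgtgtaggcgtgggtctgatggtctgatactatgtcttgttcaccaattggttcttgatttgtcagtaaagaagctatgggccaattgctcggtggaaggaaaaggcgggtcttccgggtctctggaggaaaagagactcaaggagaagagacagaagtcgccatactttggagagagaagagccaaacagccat

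CACGTG was found in the windows of 5 of the 8 genes, which is 62.5% of them, against 15 of 52 windows (28.8%) of other germline genes and 1410 of 17189 windows (8.2%) of all genes. It began 223 bases before the start in Mael, 120 before it in Stk31, 64 and 43 before it in Sycp3, 57 and 20 before it in Hormad1 and 49 before it in Taf7l. GCGGGA on either strand was found in Mael, Sycp3 and Hormad1, or 37.5% of the 8, against 36.5% of the other germline genes and 26.0% of all genes. No match of one motif overlapped a match of the other. A match is a description of the letters and does not show that a factor binds there, and a window with no match says only that these letters are not in it.

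The promoter windows differed in CpG content. Dazl and Stk31 held 28 CpG each, Mael and Hormad1 24 each, Asz1 and Taf7l 17 each and Sycp3 15, while Rhox5 held 5. The observed to expected CpG ratio was 0.36 in Rhox5 and 0.67 to 1.03 in the other genes. Over the 8 windows the median was 20.5 CpG, against 16.5 in the other germline genes and 14 in all genes. The 7 other windows all held more CpG than the median window of all genes, and the low count of Rhox5 holds for its distal start alone.

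**Figure D1:**
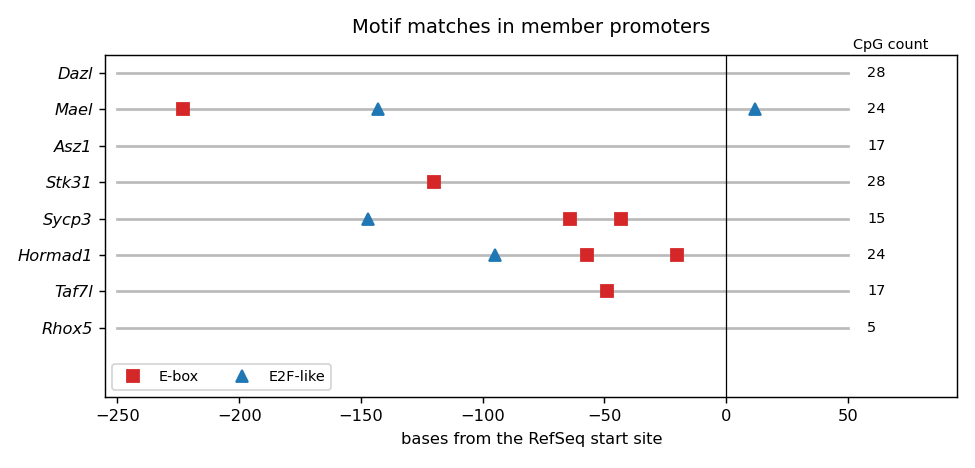
Matches of the E-box CACGTG (squares) and of the E2F-like GCGGGA on either strand (triangles) in the RefSeq promoter windows of 8 genes, by distance in bases from the start site, with the number of CpG at the right. The Rhox5 window, at the distal start of the gene, has neither motif and 5 CpG, and the other windows have 15 to 28.

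In NT cells the 9 genes covered a wide range of levels. Per length, Rhox5 led with 36.2 ± 6.01 RPKM (CPM per kilobase of gene length, SD, n = 4), which placed it at percentile 92.4 of all genes in the table. Piwil2 followed with 4.70 ± 0.198 RPKM (SD, n = 4). Then came Mael with 2.72 ± 0.314, Stk31 with 2.39 ± 0.422, Dazl with 2.03 ± 0.52, Sycp3 with 2.00 ± 0.263, Hormad1 with 1.70 ± 0.225 and Taf7l with 1.49 ± 0.449 RPKM (SD, n = 4 each). The NT ranges of Rhox5 and Piwil2 did not overlap, nor did those of Piwil2 and Mael. From Mael down to Taf7l each gene overlapped its neighbour in the order, so neighbouring levels among these 6 did not differ beyond their spread, and they lay at percentiles 60.2 down to 55.3. Asz1 had 0 reads in all 4 NT libraries.

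Among the 8 genes with enough reads to enter the fit over all 14497 tested genes, 7 had a mean level below NT with both Mycn guides together and 1, Sycp3, had a level above it. Their median log2 fold change was -0.38 and their range -1.04 to 0.06, beside a median of 0 over all tested genes. For Piwil2 and Stk31 all 8 guide libraries lay below all 4 NT libraries, which 6.87% of all tested genes also did, while 8.56% had all guide libraries above NT. All libraries lay below NT for 4 of the 8 genes with Mycn-gRNA2 (Piwil2, Mael, Stk31 and Rhox5), beside 9.35% of all tested genes, and for 3 with Mycn-gRNA3 (Piwil2, Stk31 and Taf7l), beside 18.5%. Per ERCC read 4 of the 8 lay above NT (Dazl, Sycp3, Hormad1 and Rhox5) and 4 below, with a median of 0.01 beside 0.39 over all tested genes, and the groups overlapped for each of the 8, while 11.5% of all tested genes had all guide libraries above NT and 0.235% all below. These genes were chosen with these contrasts known, so nothing is read from the counts.

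**Figure D2:**
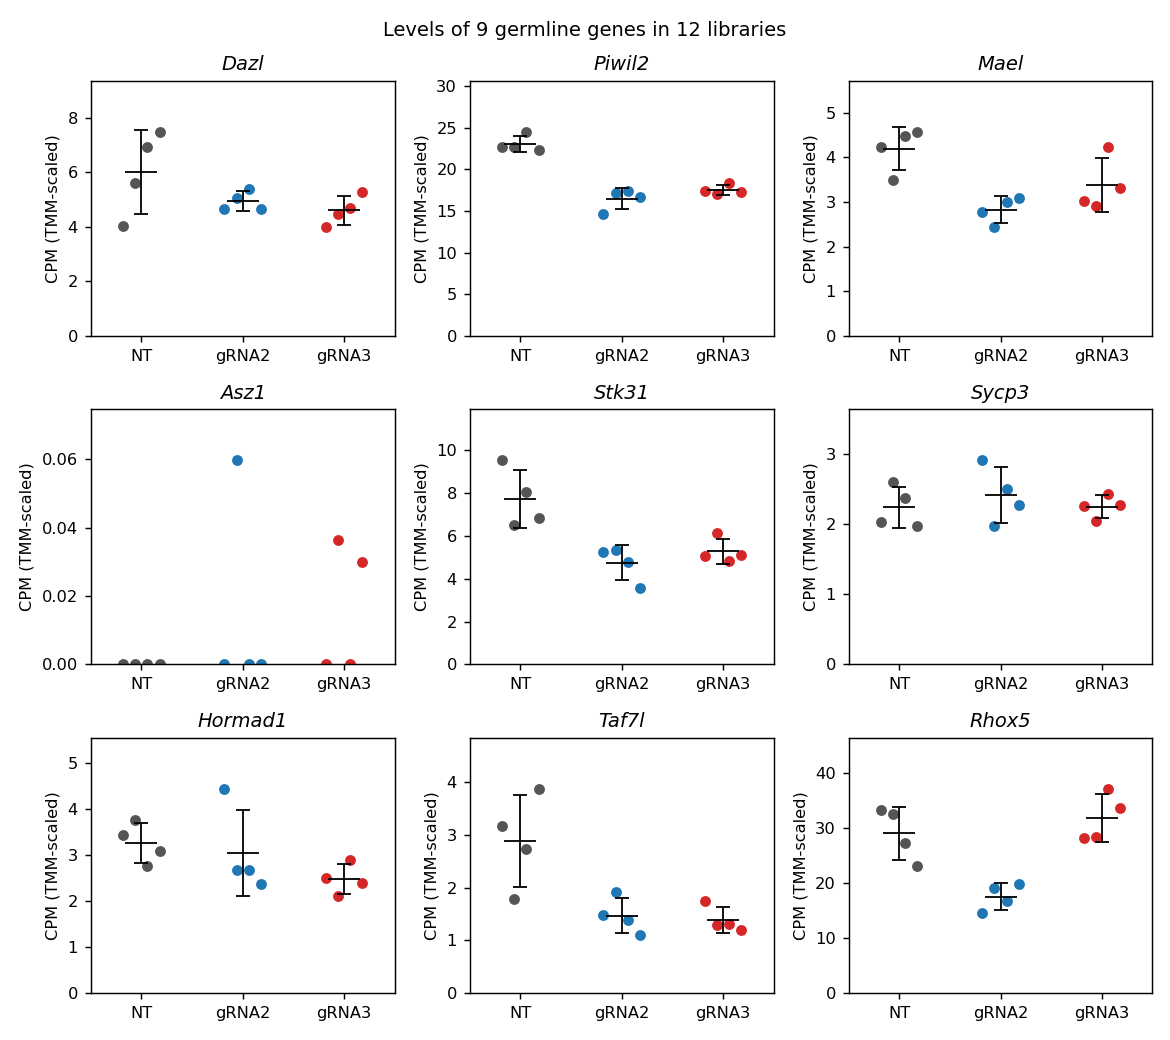
Level of each gene in every library (points) in CPM, with the mean and SD of each group of 4 where the gene entered the fit. Asz1 is at or near 0 in every library, Piwil2 and Stk31 have every guide library below every NT library, and Rhox5 is low with Mycn-gRNA2 but not with Mycn-gRNA3.

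The RNA-binding protein DAZL controls the translation of germ cell transcripts. Dazl (chr17:50279393-50293620, minus strand, mm10) stood at 4.02, 5.61, 6.93 and 7.48 CPM in NT replicates 1 to 4, at 4.65, 5.07, 5.39 and 4.65 CPM with Mycn-gRNA2 and at 4.00, 4.48, 4.71 and 5.27 CPM with Mycn-gRNA3. NT replicate 1 lay within the guide libraries, the other NT libraries lay above all 8 of them, and so the groups overlapped. The log2 fold change with both guides was -0.33 (SE 0.143), and without NT replicate 1 it was -0.48. Per ERCC read the difference was 0.06 (SE 0.176), so the level of Dazl stood close to NT on that scale.

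Genes of the piRNA pathway, which silences transposons in germ cells, come next. Piwil2 encodes a PIWI protein that binds piRNAs. Piwil2 (chr14:70372480-70429094, minus strand) stood at 22.7, 22.7, 24.5 and 22.4 CPM in NT, at 14.7, 17.2, 17.4 and 16.7 CPM with Mycn-gRNA2 and at 17.4, 17.1, 18.4 and 17.3 CPM with Mycn-gRNA3. All 8 guide libraries lay below all NT libraries, and the spread within each group was small beside the gap. The log2 fold change was -0.48 with Mycn-gRNA2, -0.40 with Mycn-gRNA3 and -0.44 with both (SE 0.0629), and it stayed between -0.45 and -0.41 without any 1 library. Per ERCC read it was -0.17 (SE 0.163), 0.09 (SE 0.162) and -0.04 (SE 0.14), and the libraries overlapped, so no clear side of NT is shown on that scale.

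Mael encodes a protein of the germ cell nuage that takes part in transposon silencing. Mael (chr1:166201385-166238744, minus strand) had 94, 78, 113 and 104 reads in NT, 64, 41, 72 and 82 reads with Mycn-gRNA2 and 75, 80, 117 and 111 reads with Mycn-gRNA3. As CPM this was 4.20 ± 0.486 in NT, 2.83 ± 0.291 in Mycn-gRNA2 and 3.38 ± 0.599 in Mycn-gRNA3 (means ± SD, n = 4 each). All 4 Mycn-gRNA2 libraries lay below NT, while Mycn-gRNA3 replicate 3, at 4.24 CPM, lay within the NT range. The log2 fold change was -0.56 with Mycn-gRNA2 and -0.31 with Mycn-gRNA3. Per ERCC read it was -0.23 (SE 0.216) and 0.17 (SE 0.212), and the libraries overlapped, so no clear side of NT is shown there with either guide. The median log2 fold change of all tested genes on chromosome 1 was -0.09 with Mycn-gRNA2 and -0.15 with Mycn-gRNA3, and its part in the values of Mael was not tested.

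Asz1, whose protein is a scaffold of the nuage at mitochondria, was at the limit of detection. Asz1 (chr6:18050964-18109061, minus strand) had 0 reads in NT, 1 read with Mycn-gRNA2, in replicate 2, and 2 reads with Mycn-gRNA3, in replicates 2 and 4. A count of 0 allows up to 3 reads, and every group was at or under that floor, so no fold is given and a difference was not detectable at this depth. Asz1 did not pass the filter on low counts and is not among the 8 genes counted above. The floor covers counting error only, because no molecular identifiers were used.

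Stk31 encodes a testis protein with a tudor and a kinase-like domain. Stk31 (chr6:49395604-49469502, plus strand) stood at 9.53, 6.51, 8.07 and 6.86 CPM in NT, at 5.26, 5.36, 4.80 and 3.59 CPM with Mycn-gRNA2 and at 5.05, 6.12, 4.85 and 5.12 CPM with Mycn-gRNA3. All 8 guide libraries lay below all NT libraries, the nearest pair being NT replicate 2 and Mycn-gRNA3 replicate 2. The log2 fold change was -0.71 with Mycn-gRNA2, -0.55 with Mycn-gRNA3 and -0.63 with both (SE 0.13). Per ERCC read these values were -0.40 (SE 0.188), -0.06 (SE 0.185) and -0.23 (SE 0.16). The estimates for Stk31 stayed below NT on both scales, though with Mycn-gRNA3 by less than the SE on the second.

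Sycp3 and Hormad1 belong to the chromosome axis of meiosis. The protein of Sycp3 builds the axial elements of the synaptonemal complex. Sycp3 (chr10:88459587-88473236, plus strand) had 45, 58, 60 and 45 reads in NT, 67, 33, 60 and 60 reads with Mycn-gRNA2 and 56, 56, 67 and 76 reads with Mycn-gRNA3. Its level was 2.25 ± 0.295, 2.41 ± 0.4 and 2.25 ± 0.158 CPM in these groups (SD, n = 4 each), and the libraries overlapped throughout. The log2 fold change with both guides was 0.06 (SE 0.13), and per ERCC read it was 0.45. Of its 1122 exon bases 536 overlap exons of Chpt1 on the other strand, and no source used here gives the strand setting of the counting, so reads of the pair cannot be told apart. The CPM of Chpt1 was 6.88 ± 0.808 for NT, 7.39 ± 0.558 for Mycn-gRNA2 and 7.29 ± 0.889 for Mycn-gRNA3 (means ± SD, n = 4 each).

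HORMAD1, a HORMA domain protein of the axis, takes part in making meiotic DNA breaks and in monitoring synapsis. Hormad1 (chr3:95559677-95587860, plus strand) had 76, 84, 70 and 70 reads in NT, 102, 45, 64 and 63 reads with Mycn-gRNA2 and 62, 58, 80 and 80 reads with Mycn-gRNA3. Its level was 3.26 ± 0.432, 3.04 ± 0.939 and 2.48 ± 0.324 CPM (SD, n = 4 each). Mycn-gRNA2 replicate 1, at 4.44 CPM, stood above every other library, and the other Mycn-gRNA2 libraries lay between 2.38 and 2.68 CPM. With Mycn-gRNA2 the log2 fold change was -0.10, and without that library it was -0.34, while with Mycn-gRNA3 it was -0.40. Per ERCC read the values were 0.21 and 0.08 (SE 0.229 each), above NT by less than their SE.

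TAF7L is the germ cell relative of TAF7, a subunit of the general transcription factor TFIID. Taf7l (chrX:134460116-134476490, minus strand) had 70, 40, 69 and 88 reads in NT, 34, 32, 33 and 29 reads with Mycn-gRNA2 and 43, 35, 36 and 40 reads with Mycn-gRNA3. As CPM this was 3.16, 1.79, 2.73 and 3.87 in NT, 1.48, 1.91, 1.38 and 1.10 with Mycn-gRNA2 and 1.74, 1.28, 1.30 and 1.20 with Mycn-gRNA3. All Mycn-gRNA3 libraries lay below NT, and Mycn-gRNA2 replicate 2 lay above the lowest NT library, replicate 2, so 7 of 8 guide libraries were below all of NT.

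The log2 fold change of Taf7l with both guides was -1.04 (SE 0.194), or 0.487 times the NT level, the lowest ratio of the 8 genes. It ran from -1.21 to -0.87 without any 1 library. Per ERCC read Taf7l stood at 0.188, 0.132, 0.179 and 0.243 reads per 1000 ERCC reads in NT, at 0.123, 0.122, 0.113 and 0.105 with Mycn-gRNA2 and at 0.165, 0.119, 0.124 and 0.0982 with Mycn-gRNA3. All Mycn-gRNA2 libraries were below NT on that scale, which 0.69% of all tested genes also were, and the log2 fold change with both guides was -0.63. Taf7l is on the X chromosome, where the median log2 fold change of 506 tested genes was -0.03 with both guides.

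**Figure D3:**
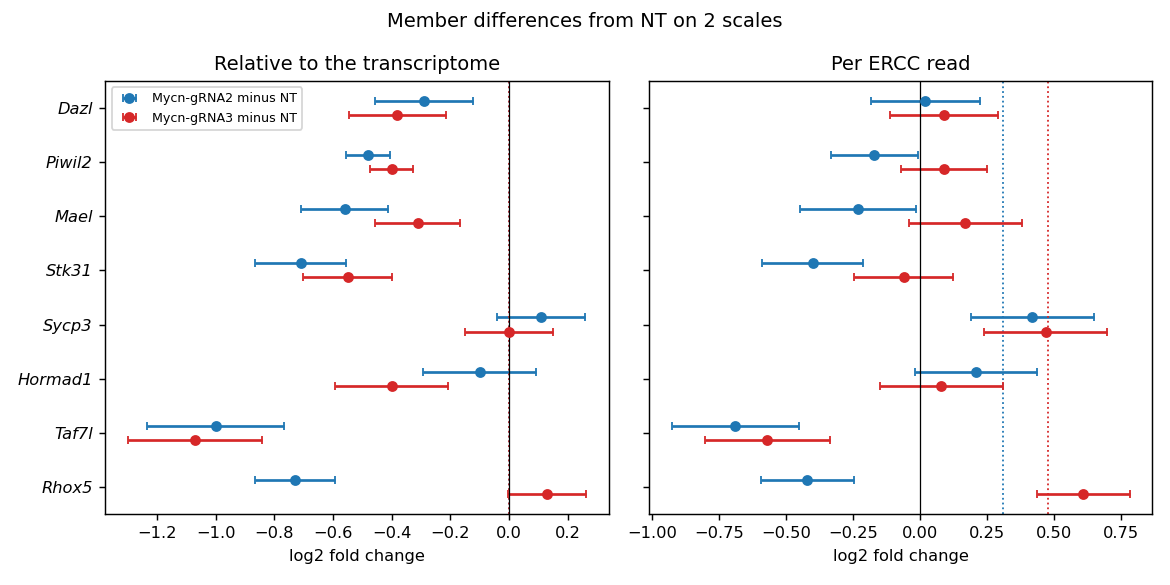
Log2 fold change of 8 genes with Mycn-gRNA2 and with Mycn-gRNA3 against NT, relative to the transcriptome at the left and per ERCC read at the right (points: estimate, bars: SE, dotted lines: median of all tested genes). Taf7l lies lowest on both scales, and Rhox5 lies at -0.73 with one guide and 0.13 with the other relative to the transcriptome.

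Rhox5, an X-linked homeobox gene, was the member with the highest level and the one that differed most between the Mycn guides. Rhox5 (chrX:37754608-37808878, plus strand) had 736, 724, 689 and 522 reads in NT, 334, 321, 401 and 523 reads with Mycn-gRNA2 and 696, 776, 1024 and 1122 reads with Mycn-gRNA3. Scaled, this was 33.2, 32.5, 27.3 and 23.0 CPM in NT, 14.5 to 19.8 CPM with Mycn-gRNA2 and 28.1, 28.3, 37.1 and 33.6 CPM with Mycn-gRNA3. All 4 Mycn-gRNA2 libraries lay below all NT and all Mycn-gRNA3 libraries, while the NT and Mycn-gRNA3 libraries overlapped.

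Against NT the log2 fold change of Rhox5 was -0.73 with Mycn-gRNA2 (SE 0.136), or 0.605 times the NT level, and 0.13 with Mycn-gRNA3 (SE 0.133). Between the guides it was 0.86 higher with Mycn-gRNA3 (SE 0.136), or 1.81 times the level with Mycn-gRNA2, and this ran from 0.77 to 0.92 without any 1 library. All 4 Mycn-gRNA3 libraries lay above all 4 Mycn-gRNA2 libraries, as they did for 2.39% of all tested genes. Over all genes edgeR called 0 genes, 0% of those tested, between the guides at an adjusted p under 0.05, while 1274 genes (8.79%) had an unadjusted p under 0.05 and DESeq2 called 1 gene. Rhox5 was chosen for this contrast among others, so its difference is a description.

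Per 1000 ERCC reads Rhox5 stood at 1.98, 2.39, 1.79 and 1.44 reads in NT, at 1.20, 1.22, 1.38 and 1.89 with Mycn-gRNA2 and at 2.68, 2.63, 3.52 and 2.75 with Mycn-gRNA3. On this scale Mycn-gRNA2 overlapped NT through its replicate 4, and all Mycn-gRNA3 libraries lay above NT, as they did for 61.2% of all tested genes. The log2 difference was -0.42 with Mycn-gRNA2, 0.61 with Mycn-gRNA3 and 1.02 between the guides, where 0.848% of all tested genes had all Mycn-gRNA3 libraries above all Mycn-gRNA2 libraries. The contrast of Rhox5 between the guides therefore kept its direction on both scales, while its position with Mycn-gRNA3 against NT rested on the scale.

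**Figure D4:**
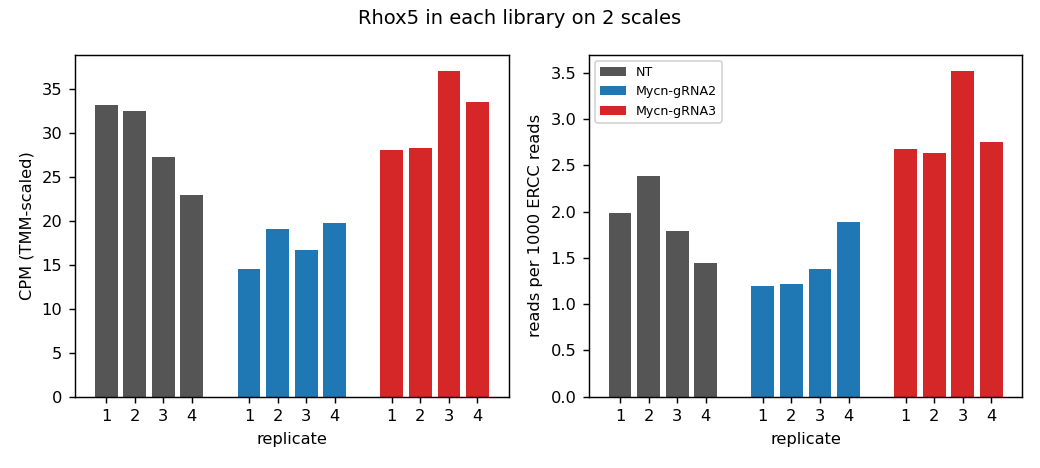
Rhox5 in every library (1 bar per replicate, coloured by group) in CPM at the left and in reads per 1000 ERCC reads at the right. The Mycn-gRNA2 libraries lie below all Mycn-gRNA3 libraries on both scales.

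The Rhox5 gene model used in the counting spans the distal and the proximal start, so the counts do not separate transcripts from them. Other genes of the Rhox cluster on the X chromosome, which are homeobox genes of the reproductive tract and placenta, had few counted reads. Rhox3a, Rhox4a, Rhox4b, Rhox4d and Rhox4e had 0 reads in every group. Reads that match several gene copies could have gone uncounted, and this was not tested. Of the 13 listed there 2 entered the fit, Rhox6 with a log2 fold change of 0.17 with both guides (edgeR adjusted p = 0.704) and Rhox9 with 0.53 (edgeR adjusted p = 0.108), and neither passed the test. Together the 13 neighbours summed to 1.14 to 2.26 CPM in NT, 2.08 to 2.86 CPM in Mycn-gRNA2 and 1.88 to 2.51 CPM in Mycn-gRNA3, so that Rhox5 alone exceeded this counted sum in every library.

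Trophoblast markers, from a lineage known for Rhox5, summed to 18.3 to 26.7 CPM in NT, 21.2 to 29.8 CPM in Mycn-gRNA2 and 24.5 to 27.6 CPM in Mycn-gRNA3 over 9 genes, and none of them was at 0 reads in a group. Of the 6 that entered the fit, edgeR called the keratin genes Krt8 and Krt18 higher with both guides, by 0.56 (adjusted p = 0.0022) and 0.94 (adjusted p = 0.00457), and Tfap2a lower at -0.84 (adjusted p = 0.00135). Over all tested genes 14.9% were called higher and 13% lower. Primitive endoderm markers, 9 genes as well, summed to 304 to 390, 354 to 444 and 372 to 454 CPM, sums made up mostly of Sparc and Lama1. Within them edgeR called 5 of 9 higher with both guides, beside 14.9% of all tested genes, and 1 lower, with a median log2 fold change of 0.93. Foxa2, an endoderm factor, rose from a mean of 0.0646 CPM in NT to 1.8 CPM in Mycn-gRNA2 and 2.73 CPM in Mycn-gRNA3 (edgeR adjusted p = 1.65e-06). Gata6 rose by 1.53 (edgeR adjusted p = 0.000153), Col4a1 by 1.42 (edgeR adjusted p = 1.38e-05), Pdgfra by 1.13 (edgeR adjusted p = 0.00658) and Dab2 by 0.93 (edgeR adjusted p = 0.00466), while Sox7 fell by 0.71 (edgeR adjusted p = 0.00192), a call that ended per ERCC read at -0.29 (edgeR adjusted p = 0.115). The part of either lineage in the Rhox5 levels, or in those of the other 8 genes, was not tested.

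Over the 12 libraries the genes whose pattern lay nearest to that of Rhox5 were Ptms, Klk8, Vsig2, Sema4a and Foxd3, by the root mean square difference of log2 CPM after subtracting the NT mean of each gene. That difference was 0.24 for Ptms, which stood at a mean of 197 CPM in NT, 148 CPM in Mycn-gRNA2 and 186 CPM in Mycn-gRNA3, and 0.258 for Foxd3. For Dazl the nearest were Gm15760 at 0.132 and Ppp1r32 at 0.14. These names describe likeness over these libraries and nothing more.

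Other germline genes were taken from lists of the piRNA pathway and nuage, meiotic chromosome structure, meiotic recombination and entry, germ cell regulators and testis-specific copies. Of the 62 genes found there 47 entered the fit. Relative to the transcriptome with both guides, edgeR called 11 of them lower (23.4%) and 6 higher (12.8%) at an adjusted p under 0.05, and 30 did not pass. Over all tested genes 13% were called lower and 14.9% higher, and the median log2 fold change of the list was -0.13 beside 0. Per ERCC read the split was 1 lower and 16 higher with a median of 0.27, beside 0.931% lower, 56.4% higher and a median of 0.39 over all tested genes. The Y-linked sums given above differ between the same groups, and their part in these calls was not tested.

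The 11 germline genes that fell relative to the transcriptome came from 4 of the lists. Over all tested genes 13% were called lower and 14.9% higher. Tex14, a protein of the bridges between germ cells, fell by 0.80 on the log2 scale (edgeR adjusted p = 0.000233), from 47.4 ± 3.13 CPM in NT to 29 ± 6.1 in Mycn-gRNA2 and 25.5 ± 3.47 in Mycn-gRNA3 (means ± SD, n = 4 each). In the piRNA list 3 of 18 fell and 3 rose, with a median log2 fold change of 0.02. Mov10l1, an RNA helicase of piRNA production, fell by 0.64 (edgeR adjusted p = 0.000886), the tudor protein gene Rnf17 by 0.55 (edgeR adjusted p = 0.001) and Ddx4, the germ cell RNA helicase VASA, by 0.44 (edgeR adjusted p = 0.000869). Rnf17 and Ddx4 were also well expressed, at 83.6 ± 4.68 and 39.8 ± 3.77 CPM in NT (SD, n = 4 each).

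Among 10 tested genes of meiotic chromosome structure 4 fell and 0 rose, beside 13% and 14.9% of all tested genes. Syce1, of the central element of the synaptonemal complex, fell by 0.65 (edgeR adjusted p = 0.000335), and Sycp1, of its transverse filaments, fell by 0.54 (edgeR adjusted p = 0.000465). The meiotic cohesin genes Smc1b and Stag3 fell by 0.47 (edgeR adjusted p = 0.0297) and 0.43 (edgeR adjusted p = 0.00646). Of 8 genes of recombination and entry 3 fell and 2 rose. The recombinase gene Dmc1 fell by 0.52 (edgeR adjusted p = 0.00407), Msh4, of meiotic crossover formation, by 0.50 (edgeR adjusted p = 0.0368) and Tex15 by 0.34 (edgeR adjusted p = 0.0141). Per ERCC read these 11 genes lay between -0.42 and 0.05, where Tex14 alone was called lower at -0.42 (edgeR adjusted p = 0.00956) and Tex15 stood at 0.05 (edgeR adjusted p = 0.75). The call on Smc1b was lost without any of 5 libraries in turn (edgeR adjusted p 0.0553 to 0.0906: NT replicate 1, NT replicate 3, NT replicate 4, Mycn-gRNA2 replicate 3, Mycn-gRNA3 replicate 3), that on Msh4 without any of 7 (0.0513 to 0.107: NT replicate 2, NT replicate 3, NT replicate 4, Mycn-gRNA2 replicate 3, Mycn-gRNA3 replicate 2, Mycn-gRNA3 replicate 3, Mycn-gRNA3 replicate 4) and that on Tex15 without NT replicate 1 or 4 (0.0504 to 0.0567). With every library kept, the call on Msh4 was also lost by DESeq2 (Wald test adjusted p = 0.0565).

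The 6 that rose relative to the transcriptome also rose per ERCC read. Tdrd12, a tudor protein gene of the piRNA pathway, rose by 0.86 (edgeR adjusted p = 3.47e-05), from 9 ± 0.586 CPM in NT to 16.6 ± 2.23 in Mycn-gRNA2 and 16 ± 1.39 in Mycn-gRNA3 (means ± SD, n = 4 each). Tex19.2 rose by 1.27 (edgeR adjusted p = 0.0137) and Henmt1, the enzyme that methylates the ends of piRNAs, rose by 1.12 (edgeR adjusted p = 0.0242). Stra8, the retinoic acid target that opens meiosis, rose by 0.60 (edgeR adjusted p = 0.0332), and Mei4, needed for meiotic DNA breaks, rose by 0.71 (edgeR adjusted p = 0.0306). Rpl10l, a copy of the ribosomal protein gene Rpl10, rose by 0.54 (edgeR adjusted p = 0.00428), and counting could have split reads between the copies. Without NT replicate 4 the call on Tex19.2 was lost (edgeR adjusted p = 0.0516), and that on Henmt1 was lost without NT replicate 2 or 4 (0.0733 to 0.0801). The call on Mei4 was lost without any of 4 libraries (0.0571 to 0.111: NT replicate 3, NT replicate 4, Mycn-gRNA2 replicate 3, Mycn-gRNA3 replicate 3) and that on Stra8 without any of 7 (0.0517 to 0.091: NT replicate 1, NT replicate 2, Mycn-gRNA2 replicate 3, Mycn-gRNA2 replicate 4, Mycn-gRNA3 replicate 2, Mycn-gRNA3 replicate 3, Mycn-gRNA3 replicate 4).

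**Figure D5:**
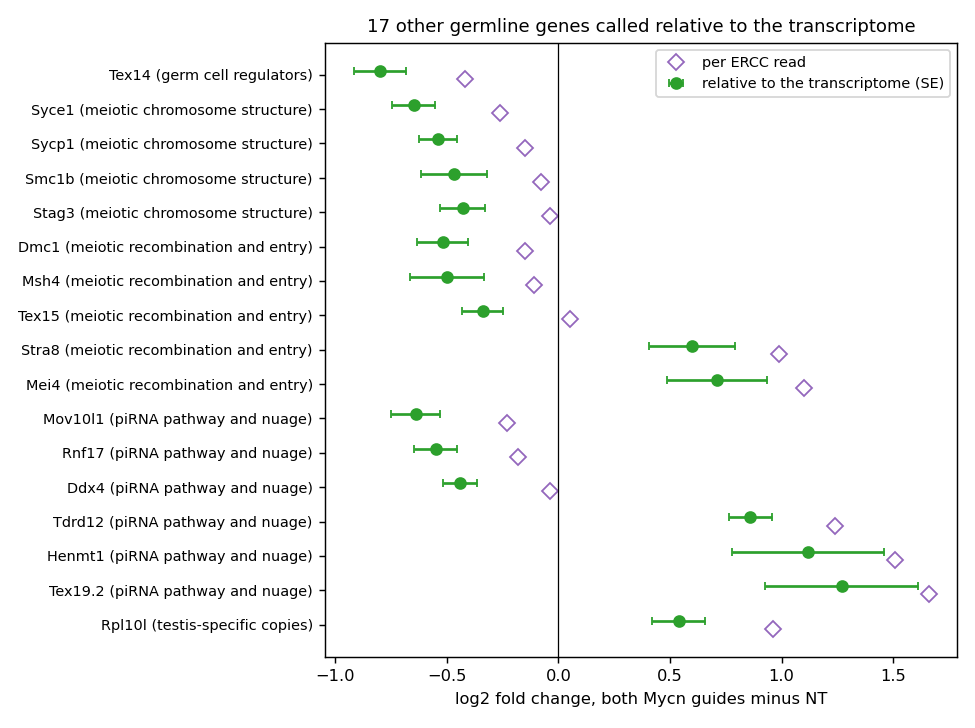
Log2 fold change with both Mycn guides of the 17 other germline genes called relative to the transcriptome (circles, bars: SE) and the same gene per ERCC read (diamonds). Of these 11 lie below 0 on the first scale, while on the second all 6 higher genes stay above 0 and Tex15 moves above it.

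By guide, edgeR called 8 of the 47 other germline genes lower and 2 higher with Mycn-gRNA2, beside 7.05% and 10.1% of all tested genes. With Mycn-gRNA3 it called 11 lower and 5 higher, beside 12.2% and 14.8%. Per ERCC read the split turned, to 1 lower and 8 higher with Mycn-gRNA2, beside 0.517% and 26.3% of all tested genes, and to 1 lower and 18 higher with Mycn-gRNA3, beside 0.504% and 60.7%. Both comparisons share the NT libraries. Without Mycn-gRNA2 replicate 1 the number of other germline genes called with Mycn-gRNA2 was 16 in place of 10. Between the guides edgeR called none of the 47, and DESeq2 called 1 gene in the whole table. An unadjusted edgeR p under 0.05 was found for 4 of the 47 (Pld6, Rpl10l, Tuba3a and Dpep3), beside 8.79% of all tested genes.

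Markers of germ cells themselves were mixed. Relative to the transcriptome with both guides, edgeR called 14.9% of all tested genes higher and 13% lower. Of 7 primordial germ cell markers, Prdm14, a factor of naive pluripotency as well as of germ cell founding, fell by 0.82 relative to the transcriptome (edgeR adjusted p = 2.9e-05), Kit fell by 0.45 (edgeR adjusted p = 0.0163) and Sox17, at a mean of 0.153 CPM in NT, rose by 1.56 (edgeR adjusted p = 0.026). The call on Kit ended per ERCC read, at -0.06 (edgeR adjusted p = 0.73), and without NT replicate 3 (edgeR adjusted p = 0.0574), and that on Sox17 without NT replicate 1, 2 or 3 (0.0607 to 0.0938). The 7 markers summed to 182 to 203 CPM in NT, 135 to 185 CPM in Mycn-gRNA2 and 128 to 164 CPM in Mycn-gRNA3. Spermatocyte and spermatid markers summed to 1.35 to 1.78, 1.06 to 1.63 and 1.11 to 1.31 CPM over 8 genes, and Tnp1, a defining gene of spermatids, had 0 reads in every library. Markers of the 2-cell-like state summed to at most 1.1 CPM in any library. Fibroblast or feeder markers summed to 17.8 to 21.2 CPM in NT, 18.5 to 23.1 CPM in Mycn-gRNA2 and 18.4 to 20.7 CPM in Mycn-gRNA3, most of it Fbn1. Of the 6 tested edgeR called 4 higher with both guides and 1 lower, beside 14.9% and 13% of all tested genes. The collagen gene Col3a1 had 1 read over the 4 NT libraries, 56 reads in Mycn-gRNA2 and 59 in Mycn-gRNA3 (edgeR adjusted p = 2.87e-05). Col5a2 rose by 1.88 (edgeR adjusted p = 9.91e-06), Col1a1 by 1.68 (edgeR adjusted p = 0.00191) and Thy1 by 1.11 (edgeR adjusted p = 0.000843). Fbn1 fell by 0.37 (edgeR adjusted p = 0.028), a call that ended per ERCC read at 0.04 (edgeR adjusted p = 0.831). The call on Fbn1 was also lost without any of 8 libraries in turn (edgeR adjusted p 0.05 to 0.0904: NT replicate 1, NT replicate 3, NT replicate 4, Mycn-gRNA2 replicate 3, Mycn-gRNA2 replicate 4, Mycn-gRNA3 replicate 2, Mycn-gRNA3 replicate 3, Mycn-gRNA3 replicate 4). Of the 7 embryonic stem cell markers 4 fell relative to the transcriptome, beside 13% of all tested genes. These were Nanog by 0.60 (edgeR adjusted p = 2.79e-05), Tfcp2l1 by 0.48 (edgeR adjusted p = 0.00369), Klf4 by 0.36 (edgeR adjusted p = 0.00495) and Esrrb by 0.35 (edgeR adjusted p = 0.0231), and all 4 calls ended per ERCC read. There Nanog stood at -0.21 (edgeR adjusted p = 0.124) and Tfcp2l1 at -0.10 (edgeR adjusted p = 0.506), while Klf4 stood at 0.02 (edgeR adjusted p = 0.872) and Esrrb at 0.04 (edgeR adjusted p = 0.799). The call on Esrrb was lost without NT replicate 1, 2 or 4 (edgeR adjusted p 0.0585 to 0.067). The part of these markers in the levels of the 9 genes was not tested.

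Listed genes linked to DNA methylation and demethylation moved in both directions. The list holds enzymes and their partners, and also the imprinted gene Zdbf2, which is not part of that machinery. Relative to the transcriptome with both guides, edgeR called 4 of its 11 tested genes higher and 3 lower, Zdbf2 among the 3. Over all tested genes these shares were 14.9% and 13%. Dppa3, a maternal and germ cell factor known to modulate DNA methylation, rose by 1.59 (edgeR adjusted p = 6.57e-05), the de novo methyltransferase genes Dnmt3b and Dnmt3a rose by 0.99 (edgeR adjusted p = 0.00432) and 0.53 (edgeR adjusted p = 0.023), and Tet3 rose by 0.29 (edgeR adjusted p = 0.00266). Tet2 and Tet1, which oxidise methylated cytosine, fell by 0.64 (edgeR adjusted p = 0.000183) and 0.32 (edgeR adjusted p = 0.00589), and the imprinted gene Zdbf2 fell by 0.62 (edgeR adjusted p = 7.81e-05). Dnmt1, the maintenance enzyme, did not pass at -0.10 (edgeR adjusted p = 0.138). The call on Dnmt3a was lost without NT replicate 1, 3 or 4 (edgeR adjusted p 0.0517 to 0.0824), and with no filter on low counts (edgeR adjusted p = 0.0531). Per ERCC read edgeR called 7 of the 11 higher and 0 lower, beside 56.4% and 0.931% of all tested genes. The calls on Tet2 at -0.25 (edgeR adjusted p = 0.0697), Zdbf2 at -0.23 (edgeR adjusted p = 0.0758) and Tet1 at 0.07 (edgeR adjusted p = 0.616) ended there.

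Of the 20 tested genes of PRC1.6 and linked repressors, 2 rose and 2 fell relative to the transcriptome with both guides, or 10% each way, beside 14.9% and 13% of all tested genes. Per ERCC read edgeR called 17 of the 20 higher, beside 56.4% of all tested genes, with a median of 0.41 beside 0.39. Cbx3, a heterochromatin protein gene, rose by 0.73 (edgeR adjusted p = 0.000499) and Yaf2 rose by 0.34 (edgeR adjusted p = 0.034), a call lost without any of 7 libraries in turn (0.0522 to 0.121: NT replicate 1, NT replicate 2, NT replicate 3, Mycn-gRNA2 replicate 3, Mycn-gRNA2 replicate 4, Mycn-gRNA3 replicate 3, Mycn-gRNA3 replicate 4). Rnf2, the ubiquitin ligase of the complex, fell by 0.31 (edgeR adjusted p = 0.000743) and Hdac2 by 0.28 (edgeR adjusted p = 0.00471). Both calls ended per ERCC read, at 0.08 (edgeR adjusted p = 0.565) and 0.12 (edgeR adjusted p = 0.406). The DNA-binding subunits Mga, at -0.10 (edgeR adjusted p = 0.469), and E2f6, at -0.07 (edgeR adjusted p = 0.621), did not pass the test.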

How the data were processed

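The authors' deposited table of raw counts gives reads per gene and per ERCC RNA, with gene lengths. The submitters' processing notes name Trim Galore 0.4.0, featureCounts with Subread 1.5.0, edgeR 3.32.1 and the build mm10. An aligner, annotation release and strand setting were not given in the sources used here. The authors' deposited log2 values cover 12042 genes, 8 of the 9 described here among them. Set against the counts, each is log2(count + 0.5) less 1 constant for its library, to within 5.1e-14, and they served one alternative test.

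Groups and replicate numbers come from the sample titles. The counts went into edgeR 4.0.16 under R 4.3.3 (quasi-likelihood, all 12 libraries, a term per group, TMM, filterByExpr, Benjamini-Hochberg adjustment), and again with library sizes set to ERCC totals. Alternatives used DESeq2 1.42.0, limma 3.58.1, other scaling, no filter, a replicate block and each library left out. No replicate pair looked like 1 library deposited again: the chi-square over its degrees of freedom was 8.57 to 72.8. The per-length values (RPKM) used the table's gene lengths. The procedure was tested on simulated data.

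The 9 genes and all lists were chosen with earlier results of these data known. Genes named from the lists are all called members of the other germline lists, at most 4 called members per further list, taken by lowest adjusted p, the 5 nearest in pattern to Rhox5 and to Dazl, and genes that complete a count of 5 or fewer, which with Dnmt1, Mga, E2f6 and Chpt1 were chosen after their values were seen.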

Additional observations from a re-analysis of the deposited data

Results flagged for a closer look

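In groups of 4 libraries, 5 of the 182 groups examined had a library set apart from the other 3 by Dixon's test at its 95% critical value, and chance alone flags about 1 group in 20. Hormad1 in Mycn-gRNA2 replicate 1 stood at 4.44 CPM (102 reads), against 2.38 to 2.68 CPM in the other Mycn-gRNA2 libraries. Piwil2 in NT replicate 3 stood at 24.5 CPM, against 22.4 to 22.7 CPM in the other NT libraries. Sycp1 in NT replicate 1 stood at 19 CPM, against 18.2 to 18.3 CPM. Hdac2 in Mycn-gRNA2 replicate 1 stood at 206 CPM, against 165 to 167 CPM. Pdgfra in NT replicate 2 stood at 1.35 CPM (30 reads), against 0.871 to 0.948 CPM.

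The means of Rhox5 with the Mycn guides stood on opposite sides of the NT mean per ERCC read. Every Mycn-gRNA2 library lay below the NT mean and every Mycn-gRNA3 library above it, with means that differed by 1.47 reads per 1000 ERCC reads, and this difference was not tested. Mycn-gRNA2 replicate 4, at 1.89, nearly equalled the NT mean of 1.9 and lay within the NT libraries. The log2 difference from NT was 0.61 with Mycn-gRNA3, beside a median of 0.48 over all tested genes. With Mycn-gRNA2 it was -0.42, beside a median of 0.31.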

How the results depend on the processing

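The number of genes called with both guides was 4034 relative to the transcriptome, 8312 per ERCC read and 7382 by limma on the authors' deposited log2 values. With Mycn-gRNA2 it was 2484 and 3892 per ERCC read, and with Mycn-gRNA3 it was 3925, 8867 per ERCC read and 8238 by limma. Other germline genes called with Mycn-gRNA2 numbered 10 of 47 tested (2 higher and 8 lower). By limma they numbered 5 of 34 tested (5 higher and 0 lower). Between the guides edgeR called 0 genes, DESeq2 called 1 and the ERCC-scaled fit called 1. With each library left out, called genes ran from 2928 to 6157 with both guides, 1622 to 4114 with Mycn-gRNA2, 2655 to 6012 with Mycn-gRNA3, 0 between the guides and 5599 to 10275 per ERCC read. The highest counts of the first 3 came without Mycn-gRNA2 replicate 1, and the 1622 without its replicate 3. Other germline genes called ran from 12 to 20 with both guides, also per ERCC read, 7 to 16 with Mycn-gRNA2 and 12 to 19 with Mycn-gRNA3. Genes lower relative to the transcriptome stood above NT per ERCC read and by limma on the deposited values, Tex15 at 0.05 and 0.06, Rnf2 at 0.08 and 0.08, Hdac2 at 0.12 and 0.12, Klf4 at 0.02 and 0.04, Esrrb at 0.04 and 0.04, Fbn1 at 0.04 and 0.03 and Tet1 at 0.07 and 0.08. None of these values above NT passed its test, and both alternatives scale to the ERCC RNAs by construction. Of the 32 fold changes over 4 comparisons of the 8 genes in the fit, 26 moved by more than 1 SD per ERCC read, 27 by limma and 0 with DESeq2, its size factors, no filter or the block. With each library left out, 2 values moved by that much and 382 did not. Same-numbered replicates were not taken as pairs in the main fit, so an effect shared by replicate number was not modelled there. The 12 same-numbered pairs had correlations from -0.08 to 0.64, with 8 over 0.1, and other pairs had -0.64 to 0.47. Of the 12 libraries 9 correlated best with a library of their own number, and whether replicate number marks a shared effect was not tested. With the replicate block 4456 genes were called with both guides, 2808 with Mycn-gRNA2 and 4415 with Mycn-gRNA3, and 18 other germline genes with both guides. At 29 to 102 reads per library a small difference in Taf7l, Sycp3 or Hormad1 was not detectable.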
